A study of Mus musculus with 24 samples.

Results

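The question was what anti-PD-1 adds to the RNA of mammary tumours that already received entinostat and anti-CTLA-4. The 4 tumours labelled ENT + PD1 + CTLA4 were set against the 4 labelled ENT + CTLA4. These 8 of the 24 samples of the series were chosen by their titles alone, and all 8 ran on the second of 2 cartridges of the counting instrument. Each tumour grew from NT2.5 cells, a line derived from a spontaneous mammary tumour, placed in the mammary fat pad of female neu-N mice (strain FVB-Neu-N) aged 7 to 8 weeks. Neu-N mice carry the rat neu gene under a mammary tumour virus promoter and are tolerant to its product. Both groups received entinostat (ENT) by gavage each day at 5 mg/kg in 0.5% methylcellulose, and anti-CTLA-4 at 100 µg per mouse 2 times a week. The ENT + PD1 + CTLA4 mice also received anti-PD-1 at 100 µg per mouse on that weekly schedule. The spread used by the test was also drawn from vehicle, ENT, ENT + PD1 and ENT + CTLA4 + anti-HER2 tumours. Each agent named there had the dose given above, and anti-HER2 was given at 100 µg per mouse. Treatment began on day 3 and ran for 3 weeks, after which the tumours were dissociated. The labels call the source whole tumour, whereas the extraction text ends with the isolation of immune cells, so which cells gave the RNA is not settled. Epcam, an epithelial gene, was high in all 8 tumours. The labels name isotype antibodies for vehicle mice and do not say whether ENT + CTLA4 mice had one in place of anti-PD-1. They also do not say whether anti-HER2, which the treatment protocol mentions for this model, was given here, and the titles of these 8 samples do not name it. Replicates are numbered 1, 2, 5 and 6 in each group. Replicates 1 and 2 carry a letter in their titles (C in ENT + CTLA4, A in ENT + PD1 + CTLA4), and what the letter marks is not given in the labels. Nothing in the labels ties 1 tumour to 1 mouse, so p-values measure the spread between these tumours.

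PD-1 is a receptor that activated T cells display. When its ligands PD-L1 or PD-L2 bind it, signalling from the T cell receptor is damped, and antibodies that block PD-1 prevent this. CTLA-4 acts earlier, by taking the ligands CD80 and CD86 away from the costimulatory receptor CD28. Entinostat inhibits class I histone deacetylases, enzymes that remove acetyl groups from histones.

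RNA molecules of 750 endogenous genes and 20 housekeeping genes were counted without amplification on a mouse immune panel, which the labels name in more than one way. The deposited values are normalized counts, in which every sample has a housekeeping geometric mean of 346.9. They are called values here. The ENT + CTLA4 tumours are listed first, as those without anti-PD-1, then the ENT + PD1 + CTLA4 tumours, as those with it, each in the order of replicates 1, 2, 5 and 6. Recovered totals were 346883 to 483418 counts in ENT + CTLA4 (402550 ± 59230, SD, n = 4) and 308488 to 460535 in ENT + PD1 + CTLA4 (377758 ± 62586, n = 4). These ranges overlapped (two-sided exact permutation test, p = 0.571, where the design allows no p under 0.0286). The mean of the 8 negative control probes plus 2 SD lay between 8.54 and 12.5 in the 8 tumours, and a value under that limit was read as close to background. Differences are on the scale of log2(value + 1), ENT + PD1 + CTLA4 minus ENT + CTLA4, with their standard error, and understate the fold of weak genes. The test was limma's moderated test on the 601 genes that reached a value of 20 in 4 or more samples of the series, with Benjamini-Hochberg adjustment over all 601. The remaining 149 genes were not tested.

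Adding anti-PD-1 was accompanied by no difference in a single gene that passed this test. Of 601 genes, 0 (0%) had an adjusted p under 0.05, and the lowest adjusted p was 0.9998. At an unadjusted p under 0.05 there were 10 genes (1.66%), 3 with a higher and 7 with a lower mean under anti-PD-1. On the recovered counts, edgeR and DESeq2 also called 0 genes, with 11 and 12 genes at an unadjusted p under 0.05. The mean was higher with anti-PD-1 for 280 genes and lower for 321, with a median difference of −0.02 log2 units and 5th and 95th percentiles of −0.36 and 0.51.

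The width of the intervals shows what could have been seen. The median standard error was 0.29 log2 units and the median 95% interval reached 0.61 to each side. For 428 of 601 genes (71.2%) the whole interval lay within a 2-fold difference in either direction. For the other genes a difference of 2-fold or more was not excluded by their interval. Only 5 genes had an estimated difference of more than 1 log2 unit in either direction, among them Cxcl15, Klra7, Ccl24 and Ccl6, described below.

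**Figure D1:**
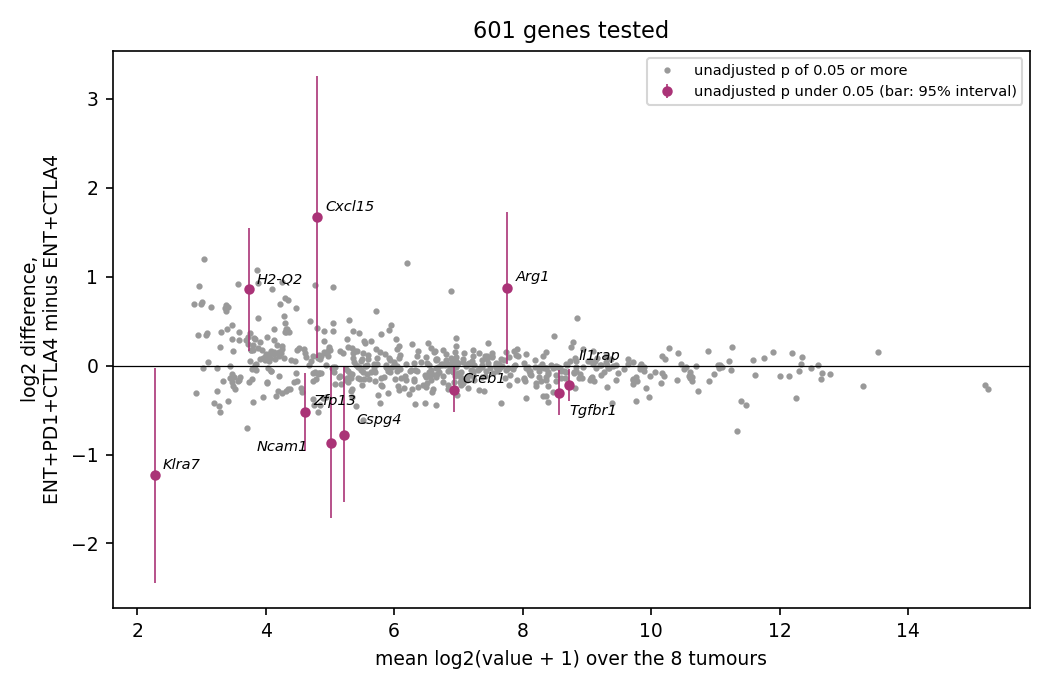
Difference between ENT + PD1 + CTLA4 and ENT + CTLA4 (log2 units, vertical axis) against the mean log2(value + 1) over the 8 tumours (horizontal axis) for 601 genes, each point 1 gene. The 10 genes with an unadjusted p under 0.05 are named and carry 95% intervals; none passed adjustment, and the points widen around 0 toward weak genes.

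The receptor that the added antibody binds gave weak signal in these tumours. Pdcd1, which encodes PD-1, had values of 10.3, 7.29, 8.21 and 12.4 without and 19.5, 10.6, 7.31 and 15.1 with anti-PD-1. It did not reach 20 in enough samples to be tested, and the groups overlapped. Its ligand gene Cd274 (PD-L1) had values of 70.8, 42.7, 39.2 and 55.2 without and 68.1, 32.6, 48.7 and 58.4 with anti-PD-1. The difference was −0.01 ± 0.43, with a 95% interval of −0.92 to 0.90, and the ranges of the groups overlapped. Pdcd1lg2 (PD-L2) had values of 7.18, 7.29, 5.47 and 9.32 without and 23.8, 7.93, 8.12 and 14.1 with anti-PD-1. Only ENT + PD1 + CTLA4 replicates 1 and 6 stood clear of the ENT + CTLA4 values, and the difference was 0.69 ± 0.47 (−0.29 to 1.67).

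The CTLA-4 and CD28 family showed the same kind of spread, set by single tumours. Ctla4 had values of 17.4, 18.8, 18.3 and 30.3 without and 112, 14.1, 15.4 and 30.3 with anti-PD-1. Replicate 1 of ENT + PD1 + CTLA4 was far above the other 7 tumours, and the difference of 0.50 ± 0.74 had an interval of −1.05 to 2.05. Icos, a costimulatory receptor that T cells raise on activation, had values of 14.4, 9.37, 4.56 and 109.5 without and 175, 7.93, 9.74 and 33.5 with anti-PD-1. Here 1 tumour of each group, replicate 6 without and replicate 1 with anti-PD-1, was high, and the difference was 0.64 ± 1.05. Cd28 had values of 38.0, 20.8, 21.9 and 28.0 without and 61.7, 30.9, 23.6 and 23.8 with anti-PD-1, a difference of 0.28 ± 0.33. The B7 ligands of antigen-presenting cells were more even. Cd80 had values of 70.8, 51.0, 60.2 and 62.9 without and 112, 35.3, 85.3 and 68.1 with anti-PD-1 (0.19 ± 0.49), and Cd86 of 137, 117, 128 and 179 without and 148, 67.0, 181 and 120.0 with anti-PD-1 (−0.19 ± 0.34). Both ligands were lowest of all 8 tumours in ENT + PD1 + CTLA4 replicate 2. Cd276, a further B7 family member, had a difference of −0.13 ± 0.13 and an interval of −0.41 to 0.15. Over the family, 4 of 7 genes had a higher mean and 3 a lower one, with a median difference of 0.19, or −0.13 without ENT + PD1 + CTLA4 replicate 1. Over the other inhibitory receptors, 6 of 10 tested genes had a higher mean, with a median of 0.08. In that list Lag3 had a difference of −0.26 ± 0.26, Cd244 of 0.38 ± 0.38 and Ceacam1, an adhesion molecule, of −0.25 ± 0.23. Lgals3, which encodes galectin-3, was far above background, and its difference was 0.00 ± 0.21 with an interval of −0.44 to 0.44.

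The 10 genes with the smallest unadjusted p did not pass adjustment and are described by their values. Il1rap, the accessory chain of the interleukin-1 receptor, came first. Its values were 473, 461, 473 and 408 without and 376, 394, 374 and 411 with anti-PD-1. All ENT + PD1 + CTLA4 tumours but replicate 6 lay under all of ENT + CTLA4, and the difference was small at −0.22 ± 0.09 (limma, unadjusted p = 0.0178). Tgfbr1, a receptor chain for transforming growth factor beta, had values of 388, 404, 459.9 and 438 without and 382, 288, 385 and 321 with anti-PD-1. The groups did not overlap, with the highest ENT + PD1 + CTLA4 tumour just under the lowest of ENT + CTLA4, and the difference was −0.30 ± 0.12. Creb1, a transcription factor that responds to cyclic AMP, had values of 127, 134, 143 and 127 without and 128, 96.1, 112 and 106 with anti-PD-1 (−0.27 ± 0.12). Its groups met at replicate 1 of ENT + PD1 + CTLA4.

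Arg1 was the only gene of the 10 with a higher mean under anti-PD-1 that was well above background in all 8 tumours. It encodes arginase 1, an enzyme of myeloid cells that breaks down arginine. Its values were 139.6, 128, 248 and 144 without and 421, 218, 309 and 259.6 with anti-PD-1. Replicate 5 of ENT + CTLA4 lay above replicate 2 of ENT + PD1 + CTLA4, so the groups overlapped, and the difference was 0.88 ± 0.41 with an interval of 0.02 to 1.73 (limma, unadjusted p = 0.0449). It was 1.17 among replicates 1 and 2, and 0.58 among replicates 5 and 6. Cxcl15, a chemokine known from lung epithelium, had values of 72.9, 6.25, 21.9 and 3.88 without and 46.5, 37.0, 43.0 and 76.8 with anti-PD-1. The ENT + CTLA4 tumours ranged widely, with replicates 2 and 6 under the background limit, and the difference was 1.67 ± 0.76 (0.09 to 3.26). H2-Q2, a class I gene with close relatives on the same chromosome, had values of 15.4, 8.33, 10.0 and 4.66 without and 23.8, 18.5, 12.2 and 15.1 with anti-PD-1. Most of these were near the background limit, and the difference was 0.86 ± 0.33.

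The remaining genes of the 10 had lower means with anti-PD-1. Zfp13, a zinc finger gene, had values of 31.8, 29.2, 36.5 and 18.6 without and 16.2, 23.8, 17.9 and 20.6 with anti-PD-1 (−0.52 ± 0.21). Cspg4, a proteoglycan of pericytes and some tumour cells, had values of 32.8, 51.0, 56.6 and 54.4 without and 32.4, 11.5, 47.1 and 31.4 with anti-PD-1 (−0.78 ± 0.36). Ncam1, a neural adhesion molecule, had values of 24.6, 58.3, 51.1 and 45.8 without and 35.7, 7.93, 52.0 and 18.4 with anti-PD-1 (−0.87 ± 0.40). In both Cspg4 and Ncam1 the lowest of the 8 tumours was ENT + PD1 + CTLA4 replicate 2, and the groups overlapped. Klra7, a Ly49 receptor gene, had values of 7.18, 12.5, 4.56 and 3.88 without and 10.8, 1, 1 and 1.08 with anti-PD-1. Only 1 of 4 tumours in ENT + CTLA4 and 0 of 4 in ENT + PD1 + CTLA4 exceeded the background limit, so its difference of −1.23 ± 0.58 gives no usable size.

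**Figure D2:**
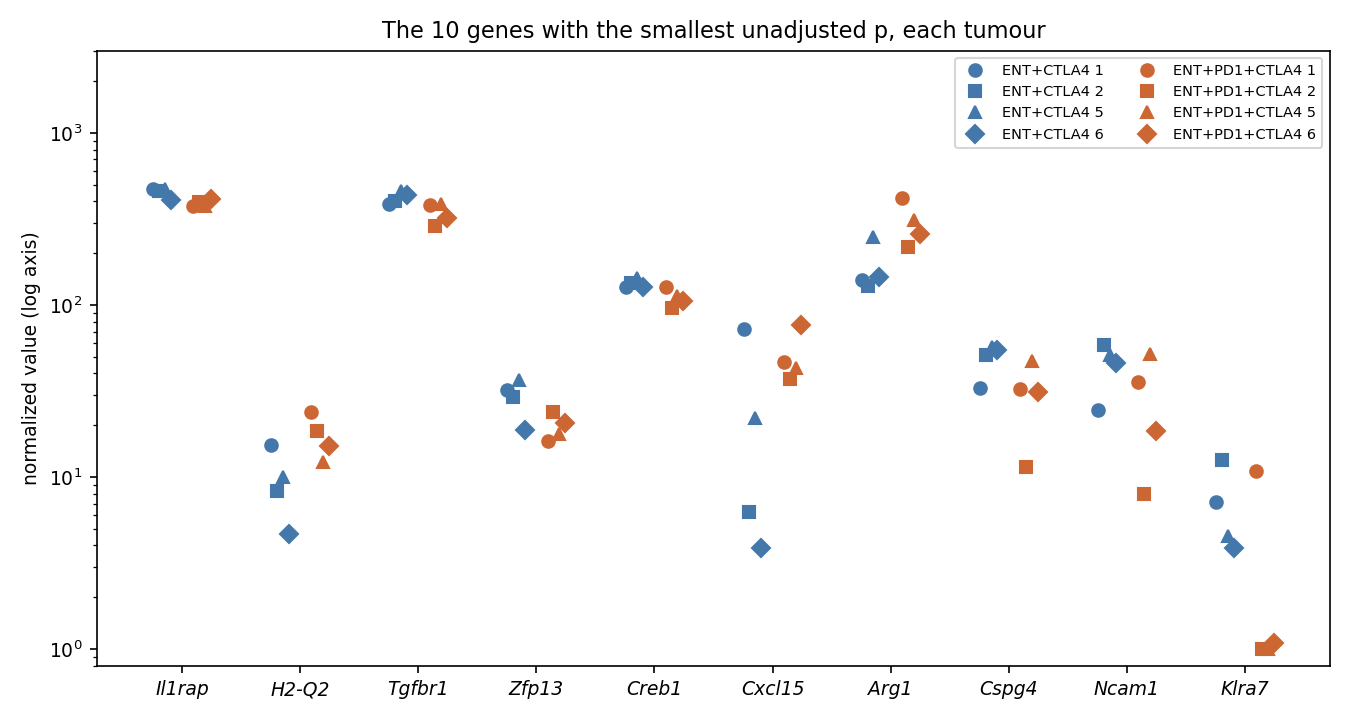
Normalized value (log axis) of the 10 genes with the smallest unadjusted p in each of the 8 tumours, with ENT + CTLA4 in blue and ENT + PD1 + CTLA4 in orange and marker shape giving the replicate. Tgfbr1 is the gene whose groups do not overlap, while for Arg1 and H2-Q2 the lowest orange and the highest blue points cross.

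A separation of the groups was no more frequent than a random split of the tumours would give. In 9 of 601 genes (1.5%) every ENT + PD1 + CTLA4 tumour lay under every ENT + CTLA4 tumour, and in 0 genes (0%) every one lay above. For a gene with no difference, a split into 4 and 4 separates the groups with a probability of 0.0286, which is above the share found. The 9 genes are therefore described by their values only. Ebi3, a subunit of the cytokines interleukin-27 and interleukin-35, had values of 61.6, 58.3, 48.4 and 53.6 without and 38.9, 32.6, 32.5 and 40.0 with anti-PD-1. This was the widest gap, and the difference was −0.61 ± 0.34 with an interval of −1.31 to 0.09. Fcgr4, an activating receptor for the Fc part of IgG on myeloid cells, had values of 104, 96.9, 115 and 94.8 without and 81.1, 61.7, 81.2 and 83.3 with anti-PD-1 (−0.42 ± 0.24). Itgax, the integrin chain CD11c of dendritic cells and macrophages, had values of 46.2, 43.7, 39.2 and 45.1 without and 36.8, 37.0, 31.7 and 36.8 with anti-PD-1 (−0.29 ± 0.36). The gaps were narrow beside the spread that limma pooled over 6 groups of tumours, and none of these genes was called.

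The other separated genes had narrower gaps. Nlrp3, the sensor of an inflammasome, had values of 343, 301, 294 and 266 without and 235, 188, 251 and 263 with anti-PD-1 (−0.37 ± 0.32). Irak2, a kinase downstream of Toll-like and interleukin-1 receptors, had values of 151, 148, 152 and 162 without and 120.1, 117, 142 and 136 with anti-PD-1 (−0.25 ± 0.17). Mavs, the mitochondrial adaptor of cytosolic RNA sensors, had values of 108, 94.8, 96.7 and 88.6 without and 76.8, 78.5, 87.7 and 84.4 with anti-PD-1 (−0.24 ± 0.13). Bid, a pro-apoptotic member of the BCL-2 family, had −0.21 ± 0.17, and the kinase gene Mapk11 had −0.45 ± 0.24. With Tgfbr1, described above, these make up the 9 genes.

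Tumours that received the same treatment differed widely. Over the 601 genes the SD of log2(value + 1) was larger in ENT + PD1 + CTLA4 than in ENT + CTLA4 for 418 genes, with medians of 0.40 and 0.29. Leaving out replicate 1 of ENT + PD1 + CTLA4 brought its median SD to 0.32, and leaving out replicate 2 to 0.28. Those replicates stood at opposite ends. Replicate 1 was the highest of its group for 334 genes, and replicate 2 the lowest for 355. Of the 8 tumours, replicate 1 also had the most genes at a value of 20 or more, 568. Replicate 2 had the fewest, 428, with 18 values at the floor of 1. The part of this in the spread was not tested. On the first principal component of the 8 tumours, which took 61.7% of the variance, replicate 1 scored 19.8 and replicate 2 −19.5. The other ENT + PD1 + CTLA4 tumours scored 2.37 and 0.53, and the ENT + CTLA4 tumours −0.37, −9.80, −3.37 and 10.4. For comparison, the median SD was 0.21 in ENT, 0.44 in ENT + PD1 and 0.28 in vehicle, groups that ran on the first cartridge.

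The 10 genes with the highest SD over the 8 tumours included chemokines, lymphocyte genes and a neutrophil gene. Ccl8, a monocyte-attracting chemokine, had values of 401, 157, 712 and 1465 without and 2178, 27.3, 1620.1 and 758 with anti-PD-1. ENT + PD1 + CTLA4 held both the highest and the lowest tumour, and the difference was 0.05 ± 1.01. Ccr7, the receptor that guides naive T cells and mature dendritic cells, had values of 33.9, 29.2, 19.2 and 366 without and 675, 19.4, 34.9 and 55.2 with anti-PD-1. Ms4a1, which encodes the B cell antigen CD20, had values of 12.3, 7.29, 11.9 and 128 without and 195, 7.05, 10.6 and 10.8 with anti-PD-1. For Ccr7 and Ms4a1 only replicate 6 of ENT + CTLA4 and replicate 1 of ENT + PD1 + CTLA4 were high. Lyve1, a marker of lymphatic endothelium and some macrophages, had values of 28.7, 12.5, 42.9 and 81.6 without and 127, 1, 69.0 and 29.2 with anti-PD-1. It sat at the floor of the table in ENT + PD1 + CTLA4 replicate 2. Camp, a granule peptide of neutrophils, had values of 9.23, 6.25, 10.0 and 22.5 without and 110.3, 1.76, 2.44 and 3.24 with anti-PD-1, with replicate 1 of ENT + PD1 + CTLA4 alone above the rest.

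T cell genes set 2 tumours apart, 1 in each group. The panel held 14 T cell markers, of which 9 passed the filter. In ENT + CTLA4 all 9 were highest in replicate 6, and in ENT + PD1 + CTLA4 all 9 were highest in replicate 1. Cd3g, a chain of the T cell receptor complex, had values of 19.5, 9.37, 8.21 and 179 without and 339, 18.5, 18.7 and 30.3 with anti-PD-1 (0.88 ± 0.99). Cd3d, a second chain, had values of 22.6, 9.37, 21.0 and 127 without and 221, 19.4, 17.9 and 22.7 with anti-PD-1 (0.39 ± 0.71). Lck, the kinase that starts T cell receptor signalling, had values of 15.4, 7.29, 6.39 and 92.4 without and 202, 7.05, 10.6 and 13.0 with anti-PD-1 (0.37 ± 0.93). In each of these genes 1 tumour per group was high, and the other 6 lay between 8.21 and 30.3 for Cd3g. Cd4 had values of 7.18, 4.17, 2.74 and 34.2 without and 96.3, 3.53, 9.74 and 14.1 with anti-PD-1 (0.92 ± 0.79). Cd8a, the CD8 alpha chain, had values of 6.16, 4.17, 1 and 27.2 without and 51.9, 3.53, 6.50 and 3.24 with anti-PD-1, and Cd8b1 of 3.08, 4.17, 1.82 and 14.8 without and 17.3, 5.29, 1 and 3.24 with anti-PD-1. Neither CD8 gene was tested. The 14 markers summed to 79.5 to 784 in ENT + CTLA4 and to 95.5 to 1553 in ENT + PD1 + CTLA4. Since RNA came from a mixture of cells, fewer cells of a type and less RNA per cell cannot be told apart here.

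The mean of the T cell list shows the same 2 tumours. As the average log2(value + 1) of its 9 tested genes minus the ENT + CTLA4 mean, it was −0.14, −0.99, −1.01 and 2.14 in ENT + CTLA4 and 3.20, −1.06, −0.56 and −0.04 in ENT + PD1 + CTLA4. By gene, 6 of 9 had a higher mean with anti-PD-1, beside 280 of all 601 genes, and the median difference was 0.39. That median was 1.79 among replicates 1 and 2 and −1.05 among replicates 5 and 6, so its sign followed the pair of tumours compared. Without ENT + PD1 + CTLA4 replicate 1 it was −0.46. Zap70, a kinase that acts after Lck, had −0.30 ± 0.76, the lowest difference of the list.

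Genes of regulatory and effector T cells did not separate the groups. Foxp3, the transcription factor of regulatory T cells, was untested, with values of 7.18, 4.17, 5.47 and 8.54 without and 21.6, 3.53, 1.62 and 11.9 with anti-PD-1. Il2ra, which encodes the interleukin-2 receptor chain CD25, had values of 10.3, 13.5, 7.30 and 25.6 without and 75.7, 9.70, 13.8 and 38.9 with anti-PD-1 (0.94 ± 0.80). Of 6 tested genes of this list 5 had a higher mean, with a median of 0.46. That median rested on ENT + PD1 + CTLA4 replicate 1 and was 0.02 without it. It was 1.09 among replicates 1 and 2, −0.18 among replicates 5 and 6, and −0.12, the value of Ikzf2, with the filter applied within the 8 tumours alone. Ikzf2 had the lowest difference among them, −0.12 ± 0.25. The cytotoxic genes Gzmb and Prf1, for granzyme B and perforin, were untested. Gzmb had values of 5.13, 3.12, 1.82 and 10.9 without and 7.57, 5.29, 4.06 and 4.33 with anti-PD-1. Prf1 had values of 8.21, 2.08, 5.47 and 14.0 without and 15.1, 4.41, 3.25 and 4.33 with anti-PD-1. Their readings were at or near background in nearly every tumour. Gzma, for granzyme A, had a difference of 0.14 ± 0.31, and Ifng, for interferon gamma, of 0.69 ± 0.48 on values of 10.3, 6.25, 4.56 and 1.55 without and 11.9, 11.5, 4.06 and 8.65 with anti-PD-1. Ctsw, a cathepsin of cytotoxic cells, had a difference of −0.08 ± 0.22. The 4 tested genes had a median of 0.03.

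Among genes of lymphocyte activation and fate, Tcf7 was high in the tumours that were high for T cell genes. This factor of naive and memory-like T cells had values of 71.8, 109, 129 and 183 without and 309, 95.2, 78.8 and 91.9 with anti-PD-1 (0.05 ± 0.33). It was highest in replicate 6 without and replicate 1 with anti-PD-1. Gata3, which luminal mammary cells also express, was even across the tumours, with 0.11 ± 0.15. Irf4, a factor of activated lymphocytes, had the highest difference, 0.45 ± 0.61. Over the list 6 of 11 tested genes had a higher mean, and the median was 0.05.

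Several NK receptor and B cell genes were also highest of their group in those tumours. Il2rb, the interleukin-2 receptor chain CD122, had values of 30.8, 20.8, 23.7 and 94.8 without and 160.1, 20.3, 28.4 and 46.5 with anti-PD-1 (0.39 ± 0.65). Ncr1, which encodes the NK cell receptor NKp46, had values of 14.4, 13.5, 8.21 and 16.3 without and 24.9, 9.70, 10.6 and 18.4 with anti-PD-1 (0.20 ± 0.32). Klrk1, which encodes NKG2D, had values of 15.4, 11.5, 9.12 and 20.2 without and 17.3, 11.5, 8.93 and 11.9 with anti-PD-1 (−0.15 ± 0.33). Outside the Ly49 family 5 of 8 tested NK genes had a higher mean, with a median of 0.17, or −0.16 without ENT + PD1 + CTLA4 replicate 1. Klrd1, the CD94 chain of NK receptors, had 0.26 ± 0.56, and Itga2, an integrin chain, −0.41 ± 0.40. Of 7 tested Ly49 genes 2 had a higher mean, with a median of −0.06. Klra4 had a difference of −0.06 ± 0.25, Klra2 of −0.46 ± 0.31, and Klra6 the highest difference, 0.72 ± 0.38, on values of 6.16, 4.17, 9.12 and 3.11 without and 11.9, 7.93, 7.31 and 10.8 with anti-PD-1. Ly49 genes are near copies of each other, and whether the probes tell them apart was not tested. For B cells, Cd37 had values of 63.6, 42.7, 60.2 and 216 without and 329, 23.8, 77.2 and 50.8 with anti-PD-1 (−0.04 ± 0.63). Blnk, a B cell adaptor also found in myeloid cells, was less variable, at 0.03 ± 0.23. Tnfrsf13b, a receptor for B cell survival factors, had −0.18 ± 0.36. The median of the 6 tested B cell genes was −0.02, or −0.60 without ENT + PD1 + CTLA4 replicate 1.

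**Figure D3:**
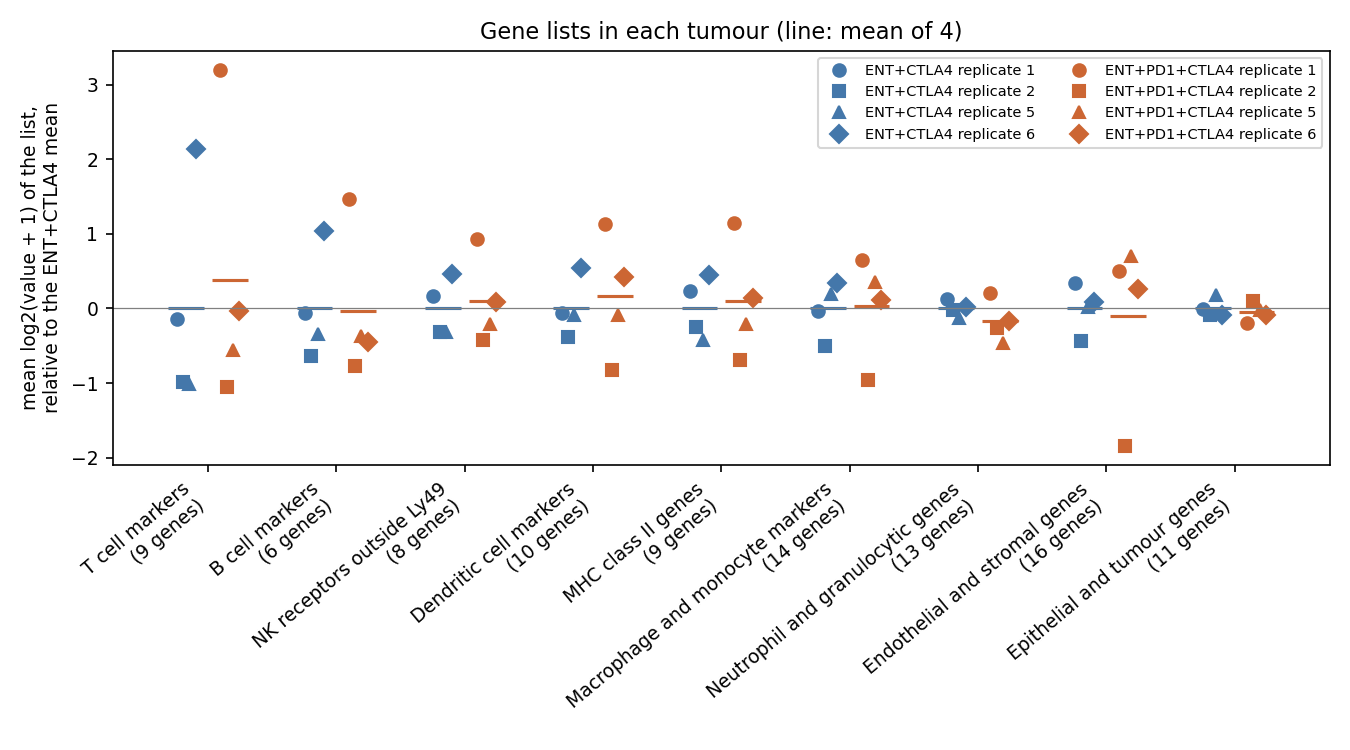
Mean log2(value + 1) of the tested genes of 9 gene lists in each tumour (vertical axis, relative to the ENT + CTLA4 mean), with ENT + CTLA4 in blue and ENT + PD1 + CTLA4 in orange; shapes give the replicate and short lines the mean of 4. ENT + PD1 + CTLA4 replicate 1 (orange circle) is highest for the lymphocyte lists, at 3.20 for T cell markers, and replicate 2 (orange square) is lowest for stromal genes, at −1.85.

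None of the macrophage and monocyte markers was called, and they were low together in replicate 2 of each group. Of 14 tested macrophage and monocyte markers 6 had a higher mean and 8 a lower one, with a median of −0.07. Within ENT + PD1 + CTLA4 all 14 were lowest in replicate 2, and within ENT + CTLA4 12 of 14 were. The list mean relative to that of ENT + CTLA4 was −0.96 and −0.50 in these tumours. Cd14, the lipopolysaccharide coreceptor, had values of 1737, 1804, 1892 and 2082 without and 1855, 1053, 1729.7 and 1665 with anti-PD-1 (−0.28 ± 0.22). Csf1r, the receptor that maintains macrophages, had values of 485, 477, 601 and 697 without and 649, 275, 672 and 550.5 with anti-PD-1 (−0.14 ± 0.36). Cx3cr1, the fractalkine receptor, had the lowest difference, −0.34 ± 0.27. CD209e, a lectin gene, had the highest, 0.89 ± 0.69, on values mostly under the background limit.

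For neutrophil and granulocytic genes the mean was lower with anti-PD-1 in 10 of 13 tested, with a median of −0.22. The median was −0.04 without ENT + PD1 + CTLA4 replicate 5 and −0.10 after quantile normalization. None was called. Lcn2, an iron-scavenging protein made by neutrophils and epithelium, had values of 53155, 50879, 36273 and 33608 without and 32885, 47153, 28959 and 35059.6 with anti-PD-1. The ranges overlapped, and the difference was −0.27 ± 0.23. Il1r2, the decoy receptor for interleukin-1, had values of 268, 269, 232 and 181 without and 196, 174, 161 and 172 with anti-PD-1 (−0.42 ± 0.28). Replicate 1 of ENT + PD1 + CTLA4 lay above the lowest ENT + CTLA4 tumour, and the other replicates lay below it. S100a8, a calcium-binding protein of neutrophils and monocytes, had values of 989, 961, 669 and 1555 without and 2776, 578, 328 and 629 with anti-PD-1. Its difference of −0.39 ± 0.54 was 0.38 among replicates 1 and 2 and −1.16 among replicates 5 and 6. Cxcl1, a neutrophil-attracting chemokine, had the highest difference of the list, 0.17 ± 0.29.

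Among suppressive myeloid genes, 8 of 17 tested had a higher mean and the median was −0.07. Arg1, above, had the highest difference. Il1b, for interleukin-1 beta, had the lowest, with values of 3165, 3926, 3220.1 and 3086 without and 3341, 2245, 2256 and 2126 with anti-PD-1 (−0.44 ± 0.27). Here 3 of 4 ENT + PD1 + CTLA4 tumours lay under all of ENT + CTLA4 and replicate 1 lay among them. Stat3, a transcription factor of interleukin-6 signalling, had a difference of −0.11 ± 0.09 with an interval of −0.29 to 0.08. Nos2, the inducible nitric oxide synthase, had values of 25.7, 27.1, 17.3 and 18.6 without and 20.6, 14.99, 21.1 and 16.2 with anti-PD-1 (−0.26 ± 0.22).

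Dendritic cell genes had a median of 0.08, with 6 of 10 tested genes at a higher mean, and the median was −0.25 without ENT + PD1 + CTLA4 replicate 1. Cd83, a maturation marker, had values of 643, 908, 1204 and 1738 without and 1326, 434, 1069.5 and 985 with anti-PD-1 (−0.25 ± 0.38). Clec4n, a lectin that binds fungal sugars, had −0.10 ± 0.29. Ccl17, a chemokine of dendritic cells, had the highest difference, 0.73 ± 0.88, which came mainly from ENT + PD1 + CTLA4 replicate 1 with a value of 67.1. Mast cell genes were few. Tpsab1, a mast cell tryptase, had values of 82.1, 111, 74.8 and 109.5 without and 95.2, 39.7, 122 and 112 with anti-PD-1 (−0.13 ± 0.31), and Kit, the stem cell factor receptor, had 0.19 ± 0.45.

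The MHC class II genes varied together from tumour to tumour, and none was called. These genes encode the molecules that present peptides to CD4+ T cells, and their promoters share a set of elements that includes a Y box bound by the factor NF-Y. Of the 9 tested class II genes, 5 had a promoter entry on chromosome 17 in the RefSeq table used (assembly GRCm38.p6). Class II entries on other chromosomes were left out of this count. Of the 5 genes, 2 held the Y box letters CTGATTGG, searched on both strands, in the 250 bases before the start. In that window 1254 of 32817 promoters (3.82%) held these letters. The 2 class II windows with a match are shown, with the Y box in capitals, on the strand of the gene. The sequence is that of the assembly, and whether these FVB-Neu-N mice carry the same letters was not tested. The H2-Aa window is chr17:34287824-34288073, on the minus strand, with the first base of the match at −51. The H2-Eb1 window is chr17:34305617-34305866, on the plus strand, with the first base at −62.
H2-Aa: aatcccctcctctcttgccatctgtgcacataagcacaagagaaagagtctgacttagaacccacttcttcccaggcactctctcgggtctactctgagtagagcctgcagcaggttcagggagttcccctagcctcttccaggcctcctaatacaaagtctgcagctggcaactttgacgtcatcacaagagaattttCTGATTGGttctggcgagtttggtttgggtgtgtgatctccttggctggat
H2-Eb1: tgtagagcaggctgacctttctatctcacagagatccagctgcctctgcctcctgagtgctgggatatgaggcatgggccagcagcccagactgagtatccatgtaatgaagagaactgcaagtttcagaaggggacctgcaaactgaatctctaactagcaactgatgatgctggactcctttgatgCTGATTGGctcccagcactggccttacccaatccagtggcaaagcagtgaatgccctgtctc
A match of letters is a description of the window and shows no binding.

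H2-Aa, whose promoter is shown, had values of 6660.3, 4582, 3658 and 5808 without and 10084, 2806, 4754 and 6311 with anti-PD-1. The highest and the lowest of the 8 tumours were both in ENT + PD1 + CTLA4, in replicates 1 and 2, and the difference was 0.10 ± 0.56 with an interval of −1.08 to 1.27. Cd74, the invariant chain that guides class II molecules, had values of 6955, 4694, 3824 and 5543 without and 8999, 3162, 4506 and 5718 with anti-PD-1 (0.02 ± 0.51). H2-Eb1 was weak, with values of 21.6, 12.5, 11.9 and 21.8 without and 45.4, 13.2, 17.1 and 22.7 with anti-PD-1 (0.42 ± 0.53), and H2-Ea-ps had −0.08 ± 0.54. All 9 tested class II genes were highest of their group in ENT + PD1 + CTLA4 replicate 1. They include H2-DMa, H2-DMb2 and H2-Ob, whose promoter windows held no match. By gene, 8 of 9 had a higher mean with anti-PD-1, beside 280 of all 601 genes, and the median difference was 0.08, or −0.23 without ENT + PD1 + CTLA4 replicate 1 and 0.36 without replicate 2. The list mean was 0.23, −0.25, −0.43 and 0.45 in ENT + CTLA4 and 1.15, −0.69, −0.21 and 0.14 in ENT + PD1 + CTLA4.

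Most class I and interferon-stimulated genes named here had small errors. H2-K1, which presents peptides to CD8+ T cells, had values of 1193, 1041, 1109.5 and 1314 without and 1747, 1128, 1264 and 1278 with anti-PD-1. H2-D1, also a classical class I gene, had values of 3705, 3542, 3228 and 4074 without and 6092, 3002, 4149 and 3459.6 with anti-PD-1. In both, ENT + PD1 + CTLA4 replicate 1 was the highest of the 8, and the differences were 0.20 ± 0.18 and 0.15 ± 0.22. Tapbp, which loads peptide onto class I molecules, had −0.02 ± 0.09 with an interval of −0.21 to 0.18. Class I genes are closely related, and whether their probes cross-react was not tested. Over the list 10 of 11 tested genes had a higher mean, and the median was 0.16. It was 0.33 among replicates 1 and 2 but near 0 among replicates 5 and 6. The immunoproteasome subunit gene Psmb8 had 0.11 ± 0.19 and Psmb9 0.19 ± 0.25, while Psmb7, a subunit of the standard proteasome, had −0.06 ± 0.09. Of 21 tested type I interferon-stimulated genes 14 had a higher mean, with a median of 0.06. Ifitm2, an antiviral membrane protein, had −0.02 ± 0.11 with an interval of −0.24 to 0.20, and Isg20, an antiviral exonuclease, had −0.15 ± 0.28. Usp18, which restrains interferon signalling, had the highest difference, 0.36 ± 0.28, and Oas3 the lowest, −0.28 ± 0.32.

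No chemokine that draws T cells was called. Cxcl9 and Cxcl10 are induced by interferon and bind CXCR3. Cxcl9 had values of 32.8, 6.25, 1 and 13.2 without and 20.6, 4.41, 14.6 and 10.8 with anti-PD-1 (0.41 ± 0.72). Cxcl10 had values of 39.0, 15.6, 33.8 and 31.1 without and 34.6, 14.99, 27.6 and 34.6 with anti-PD-1 (−0.09 ± 0.38). Cxcr3 itself had 0.22 ± 0.34, with values of 22.6, 17.7, 10.95 and 17.9 without and 26.0, 18.5, 11.4 and 27.0 with anti-PD-1, and Cxcl11 had −0.16 ± 0.41. The interval for Cxcl10 was −0.89 to 0.71 and for Cxcr3 −0.50 to 0.93. Among CC chemokines 11 of 15 tested had a higher mean, and the median was 0.22. It was −0.23 without ENT + PD1 + CTLA4 replicate 1, 1.07 without replicate 2 and 0.52 by edgeR. Ccl9, a myeloid chemokine, had values of 429, 189, 427 and 618 without and 1748, 101, 814 and 650.0 with anti-PD-1 (0.53 ± 0.67). Ccl6, a related chemokine, had values of 86.2, 7.29, 72.1 and 110.3 without and 434, 18.5, 166 and 99.5 with anti-PD-1 (1.15 ± 0.88). Ccl24, which draws eosinophils, had the highest difference, 1.20 ± 1.01, from 1 tumour: replicate 1 of ENT + PD1 + CTLA4 had 72.5 and the other 7 tumours were under the background limit or near it. Ccl5, a chemokine of T cells, had values of 38.0, 13.5, 12.8 and 164 without and 169.8, 5.29, 14.6 and 17.3 with anti-PD-1 (−0.52 ± 0.85).

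Innate sensing and complement genes had medians close to 0. Of 5 Fc gamma receptor genes 1 had a higher mean, Fcgr2b, the inhibitory receptor, with 0.11 ± 0.43. Fcer1g, the signalling chain of the activating receptors, had −0.09 ± 0.24, and the median of the 5 genes was −0.09. Of 19 Toll-like receptor and adaptor genes 8 had a higher mean, with a median of −0.10. Tlr2, a receptor for bacterial lipoproteins, had values of 170.3, 149, 185 and 251 without and 157, 103, 214 and 156 with anti-PD-1 (−0.28 ± 0.27). Tlr6 had the highest difference, 0.30 ± 0.25, and Tlr9 the lowest, −0.29 ± 0.29. For complement, C1qa had values of 1545, 1581, 1743 and 1925 without and 1990.0, 839, 1945 and 1548 with anti-PD-1 (−0.18 ± 0.31), and C1qb, a further chain of the same C1q molecule, had −0.14 ± 0.30. Both were lowest of the 8 in ENT + PD1 + CTLA4 replicate 2. Cd59b, an inhibitor of complement lysis, had the highest difference, 0.30 ± 0.31, and Cfd, for factor D, the lowest, −0.19 ± 0.32. Over 19 complement genes the median was −0.02, with 7 at a higher mean.

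Tumour cell genes were even and stromal genes were not. Epcam, an adhesion molecule of epithelial cells, had values of 5737, 6921, 5688 and 5045 without and 5418, 6927, 5719 and 4854 with anti-PD-1. Its level was high in every tumour, and the difference was −0.03 ± 0.16 with an interval of −0.36 to 0.29. Cd9, a membrane protein of the tetraspanin family, had −0.06 ± 0.14 (−0.36 to 0.23). Dmbt1, a mucosal glycoprotein, had the highest difference, 0.34 ± 0.61, and Cd44, an adhesion receptor, the lowest, −0.34 ± 0.28. Of 11 epithelial genes 2 had a higher mean, with a median of −0.06. Cell cycle and survival genes had a median of 0.07. Cdkn1a, the cell cycle inhibitor p21, had 0.09 ± 0.17. Birc5, for survivin, had values of 78.0, 93.7, 129 and 109.5 without and 112, 92.6, 139.7 and 115 with anti-PD-1 (0.17 ± 0.21).

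Stromal genes were low in ENT + PD1 + CTLA4 replicate 2. Col1a1 had values of 2609, 3133, 3633 and 4171 without and 3190.4, 415, 4373 and 2774 with anti-PD-1. Col3a1 had values of 5928, 3192, 6067 and 8168 without and 11341, 509, 10263 and 5741 with anti-PD-1. In both genes replicate 2 of ENT + PD1 + CTLA4 was several-fold under each of the other 7 tumours, and the differences were −0.74 ± 0.52 and −0.37 ± 0.68. All 16 tested endothelial and stromal genes were lowest of their group there, and the list mean in ENT + PD1 + CTLA4 was 0.50, −1.85, 0.70 and 0.25. Sele, for E-selectin of activated endothelium, had values of 30.8, 9.37, 61.1 and 55.2 without and 66.0, 6.17, 127 and 76.8 with anti-PD-1 (0.51 ± 0.68). Without replicate 2 the median difference over all 601 genes was 0.11 log2 units, and without replicate 1 it was −0.11. The part of either tumour's makeup in the differences above was not tested.

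The last comparison asked whether anti-PD-1 was accompanied by the same differences when anti-CTLA-4 was absent. The 4 ENT + PD1 tumours and the 4 ENT tumours ran on the first cartridge, so each of the 2 differences lies within a cartridge and they share no samples. Whether cartridge or anti-CTLA-4 went with a gap between the differences cannot be told apart. The titles are also unbalanced there: all 4 ENT tumours carry a letter, whereas ENT + PD1 replicates 5 and 6 do not. Those replicates had 595 and 603 genes at a value of 20 or more. ENT + PD1 replicates 1 and 2 had 540 and 494, and the ENT tumours 490 to 535. The part of this imbalance in the difference on ENT and in the interaction was not tested. The interaction, the difference with anti-PD-1 on ENT + CTLA4 minus that on ENT, was called for 0 of 601 genes (0%), with a lowest adjusted p of 0.493. At an unadjusted p under 0.05 there were 39 genes (6.49%), 36 of them negative. On the recovered counts, edgeR and DESeq2 called 0 genes for the interaction, with 27 and 28 at an unadjusted p under 0.05. It was negative for 496 genes, with a median of −0.35 log2 units. The median over all genes depended on the scaling: it was 0.06 after rescaling each sample to an equal median and 0.03 after quantile normalization. Under these scalings 14 and 18 genes had an unadjusted p under 0.05, against the 39 on the deposited scale. On ENT alone the median difference with anti-PD-1 was 0.36, and 2 of 601 genes were called there. Those calls were not refitted under the other scalings.

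The 5 genes with the smallest interaction p did not pass adjustment. Klrk1, for the activating receptor NKG2D, had means of 7.83 ± 2.84 in ENT and 26.0 ± 10.7 in ENT + PD1, and of 14.0 ± 4.85 without and 12.4 ± 3.52 with anti-PD-1 on top of ENT + CTLA4 (SD, n = 4 each). In ENT 0 of 4 tumours exceeded the background limit, and the interaction was −1.72 ± 0.46. That limit was higher on the first cartridge, at 11.2 to 18.2 in ENT and 14.3 to 25.3 in ENT + PD1. It was 8.54 to 12.5 in the 8 tumours of the second cartridge. Irak2 had means of 110.4 ± 9.41, 171 ± 45.4, 153 ± 6.26 and 129 ± 12.1 in that order, an interaction of −0.84 ± 0.24. It lay in opposite directions on the 2 backgrounds with no overlap in either. The share of all genes with no overlap on ENT was not counted. Fcgr4 had means of 54.2 ± 8.58, 95.5 ± 33.9, 103 ± 9.10 and 76.8 ± 10.1, an interaction of −1.16 ± 0.33. Cxcl16, a ligand of the receptor CXCR6 on T cells, had values of 612, 708, 751 and 713 without and 635, 449, 650.5 and 637 with anti-PD-1 and an interaction of −0.71 ± 0.22, and Tgfbr1 had −0.57 ± 0.17. Each of the 5 had an adjusted p of 0.493. After rescaling to an equal median the sizes were smaller, at −1.31 for Klrk1, −0.43 for Irak2, −0.75 for Fcgr4, −0.30 for Cxcl16 and −0.16 for Tgfbr1. Klrk1 was −0.41 with values under 20 raised to 20. Leaving out ENT + PD1 replicate 1 gave 1 called gene, Fcgr4, with an interaction of −1.42 and an adjusted p of 0.0428.

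By list, on the deposited scale, the gap between the backgrounds was widest for MHC class II genes, with a median of 1.22 on ENT and 0.08 on ENT + CTLA4, and the interaction was negative in 9 of 9. The median interaction of these genes was −0.82 log2 units relative to that of all 601 genes, against −0.48 for neutrophil genes and −0.07 for T cell markers. H2-Aa and Cd74 had interactions of −1.22 ± 0.79 and −1.20 ± 0.72. Neutrophil genes had medians of 0.53 and −0.22, dendritic cell genes of 0.93 and 0.08, and Fc gamma receptors of 0.71 and −0.09. Relative to all 601 genes the median interaction was −0.38 for dendritic cell genes and −0.45 for Fc gamma receptors. T cell markers had 0.96 and 0.39. Epithelial genes had −0.04 and −0.06, and cell cycle genes 0.02 and 0.07, so that their median interactions were 0.32 and 0.34 relative to all 601 genes. Arg1 had interaction −0.27 ± 0.58, with means of 184 ± 23.8 in ENT and 485 ± 310.0 in ENT + PD1. Its mean was thus higher with anti-PD-1 on both backgrounds, and it was called on neither.

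**Figure D4:**
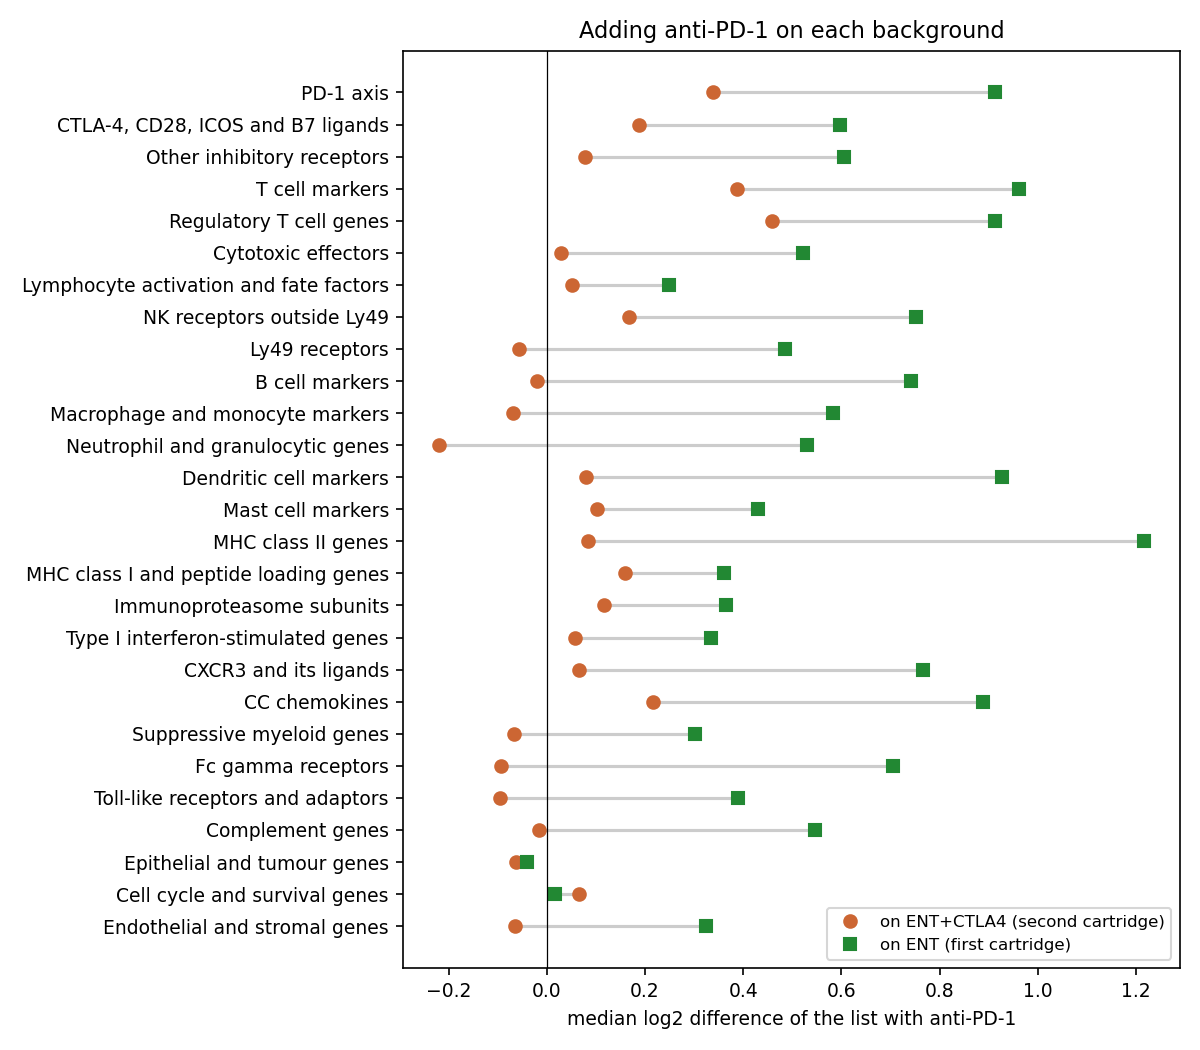
Median log2 difference with anti-PD-1 of the tested genes of 27 gene lists (horizontal axis), on ENT + CTLA4 (orange circles) and on ENT (green squares), with a grey line joining the 2 values of a list. On ENT + CTLA4 the medians lie between −0.22 and 0.46, while on ENT they lie between −0.04 and 1.22, highest for MHC class II genes. Over all 601 genes the median was −0.02 on ENT + CTLA4 and 0.36 on ENT.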

How the data were processed

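RNA of mouse mammary tumours was counted on an nCounter immune panel. The deposited values were taken as signal on a linear scale, normalized by the authors, because the housekeeping geometric mean was 346.9 in each sample. The submitters' processing notes name limma and give no version. How the authors normalized is not given in the sources used. Dividing each sample by 1 factor (0.777 to 1.08 in the 8 tumours) returned whole counts for 100% of values above 1 (tolerance 0.05). In the 8 tumours 54 values stood at exactly 1. Control probes were left as raw counts in the deposited table.

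Groups came from the sample titles. Endogenous genes with a value of at least 20 in at least 4 of 24 samples were tested as log2(value + 1) with limma 3.58.1 (lmFit, eBayes with trend, R 4.3.3), in a single fit of 22 samples in 6 groups. The groups were vehicle, ENT, ENT + PD1, ENT + CTLA4, ENT + PD1 + CTLA4 and ENT + CTLA4 + anti-HER2. A pair whose titles repeat those of other samples was left out. Genes were called at an adjusted p (Benjamini-Hochberg) under 0.05. The spread was estimated over all 6 groups, and no cartridge term entered, since both groups compared ran on 1 cartridge. The scripts were tested on simulated data. No pair of samples within a group held identical values or differed by as little as sampling noise. The alternatives were edgeR 4.0.16 and DESeq2 1.42.0 on the recovered counts, other pseudocounts, filters, floors and scalings, blocks, and leaving out single tumours.

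The members, the 27 gene lists and the tests were chosen with earlier results of these data known, so lists are described by counts and medians, with no test. The genes named were the 10 with the smallest unadjusted p, the drug targets and their ligands, 12 fixed genes, the 2 strongest members and the members with the highest and the lowest difference of each list, the genes whose groups did not overlap (at most 10), the 5 with the smallest interaction p, and the 10 with the highest SD over the 8 tumours. A further 2 genes picked by the rule are not reported here; tests and list counts include them. Promoter windows came from the RefSeq table of GRCm38.p6.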

Additional observations from a re-analysis of the deposited data

Results flagged for a closer look

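In 244 groups of 4 tumours checked over 122 named genes, 19 had 1 tumour far from the other 3, by the gap to its nearest neighbour over the range of the group. Chance alone flags about 1 in 20 groups. ENT + PD1 + CTLA4 replicate 1 stood high for T cell genes, with values of 339 for Cd3g, 221 for Cd3d, 202 for Lck and 309 for Tcf7, and for Ms4a1 at 195, Il1b at 3341 and Camp at 110.3. It was also the single high tumour for Klra7, at 10.8, near the background limit. ENT + PD1 + CTLA4 replicate 2 stood low for Fcgr4 at 61.7 and for Cxcl16 at 449, and replicate 5 for Itgax at 31.7 and Klra4 at 9.74.

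In ENT + CTLA4, replicate 6 stood high for Ctla4 at 30.3, and low for Il1rap at 408. Replicate 1 stood high for Cd244 at 15.4 and Gzma at 21.6. Replicate 2 stood low for CD209e at 3.12, Psmb9 at 36.5 and Ccl6 at 7.29.

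Irak2 differed in direction between the backgrounds, with every ENT + PD1 tumour above every ENT tumour and every ENT + PD1 + CTLA4 tumour below every ENT + CTLA4 tumour. The interaction was −0.84 log2 units, with an adjusted p of 0.493 by limma, and did not pass. It was −0.43 after rescaling each sample to an equal median. Over all 601 genes the median difference on ENT was 0.36. The share of genes whose groups did not overlap was 1.5% on ENT + CTLA4 and was not counted on ENT.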

How the results depend on the processing

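The count of 0 called genes for anti-PD-1 on ENT + CTLA4 was the same under all 23 alternatives run, with 5 to 24 genes at an unadjusted p under 0.05 (24 without ENT + PD1 + CTLA4 replicate 2). Without replicates 1 and 2 of ENT + PD1 + CTLA4, an alternative chosen after seeing the data, it was 0 with 10. For the interaction, 30 of 31 alternatives gave 0, and leaving out single tumours gave 0 to 1. The call was Fcgr4 without ENT + PD1 replicate 1 (−1.42, adjusted p = 0.0428), where 104 genes had an unadjusted p under 0.05; the cause was not tested. Whether replicate numbers pair the tumours could not be settled from the values. Same-numbered deviations from the group means correlated at −0.10, 0.63, 0.47 and −0.19 for numbers 1, 2, 5 and 6. For numbers 2 and 5 the same-numbered tumour was the best match in the other group. Replicate 1 of ENT + PD1 + CTLA4 correlated best with replicate 6 of ENT + CTLA4 (0.78). With the replicate number as a block, 0 genes were called, with 14 at an unadjusted p under 0.05, and the interaction had 0 and 17. The alternatives followed 15 gene differences, those of the 10 genes with the smallest unadjusted p and the 5 with the smallest interaction p. Of these, 0 changed sign under any alternative run, though H2-Q2 ranged from 0.06 to 1.10. They were picked from the same values for a small p, so their steady sign says nothing about the other genes. Raising values under 20 to 20 left Klra7 with no difference to report. Of 621 list medians under alternatives, 5 moved by more than the spread between replicates: Ly49 receptors to −0.46 under a filter within the 8 tumours, and cell cycle genes to between 0.01 and 0.02 without single tumours or the pair. The T cell median ranged from −0.46 to 1.18 and the stromal median from −0.37 to 0.47 over 23 alternatives. Over median rescaling, quantile normalization, edgeR and DESeq2, 7 of 27 list medians took the other sign at least once, with sizes up to 0.10 as reported and 0.14 in the alternative (B cell, CXCR3, complement, cytotoxic, stromal, epithelial and mast cell lists). With 4 tumours a group, differences smaller than the intervals could not be seen, and genes near the negative controls have no reliable size.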
